A study of Homo sapiens with 6 samples.

Results

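Of 58884 gene rows counted in 6 libraries of SW480 liver metastases, 54 belong to the synaptic vesicle and exocytosis machinery described here. They were chosen by symbol (synaptotagmins, SNARE proteins and their regulators, complexins, RAB3 and RAB27 proteins, active zone scaffolds, and proteins of synaptic and dense-core vesicles), and each of the 54 symbols matched 1 row. The family was proposed with the sgITPR3 against sgCtrl values of these same libraries known, so for its members those values are given as a description, without p-values. SW480 is an established human colorectal cancer cell line. In 3 libraries the cells carried a control guide RNA (sgCtrl) and in 3 a guide RNA against ITPR3 (sgITPR3), the type 3 inositol trisphosphate receptor, through which stored calcium leaves the endoplasmic reticulum. Cells of both groups had grown in livers of NSG mice, which lack most immune cells, after injection into the portal blood. They were recovered by collagenase IV digestion, a density gradient and depletion of mouse cells, and tags from the 3' ends of their polyadenylated RNA were sequenced. The labels state a Western blot check of the knockout, and do not say how many clones, guides or mice the libraries stand for, so the spread between libraries may be technical.

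A cell exocytoses when a vesicle docks at the plasma membrane and SNARE proteins of the vesicle (VAMPs) and of the target membrane (syntaxins and SNAPs) zip together and fuse the membranes. Neurons and endocrine cells add a calcium trigger: synaptotagmins bind calcium and complexins clamp the SNARE bundle, while RIM, UNC13, piccolo and bassoon hold and prime vesicles at the active zone. Most of these families have a paralog used mainly by neurons and endocrine cells and others used by nearly every cell. Neuroendocrine cells of the gut epithelium use much of the neuronal set, which is why synaptophysin serves pathologists as a marker of neuroendocrine tumours. The 54 members were accordingly sorted from textbook knowledge into 28 neural, 16 broad (found in most cell types or in non-neural secretory cells) and 10 mixed ones.

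Total counts were 19140055 to 23943797 per library, and levels are CPM, counts relative to the scaled library size, given as mean ± SD over n = 3 libraries or library by library in the order of the replicate numbers. ITPR3 itself was at 107, 93.8 and 94.0 CPM in sgCtrl and 39.3, 41.0 and 46.2 CPM in sgITPR3 (edgeR log2 fold change -1.22, adjusted p = 1.28e-07). The tags need not lie in the edited part of the gene, so this checks the labels only in part. Colorectal epithelial markers summed to 2385 to 2769 CPM in sgCtrl and 1964 to 2022 CPM in sgITPR3. Most of these sums came from the general epithelial genes KRT18, KRT19, EPCAM and KRT8, each lower in sgITPR3 without overlap. CDX2 went the other way, from 47.1 ± 4.18 to 59.7 ± 5.39 CPM without overlap. KRT20, CDX1 and CEACAM5 had at most 1 count in any sgCtrl library and at most 12 in any sgITPR3 library. Neuron markers summed to 0.373 to 1.04 and 1.45 to 1.75 CPM, with any count at all in 7 of 8 and NEFL at 0 in all libraries. NEFM, ELAVL3 and STMN2 had only 2 counts each, in a single sgITPR3 library. Most of the sgITPR3 sum came from ELAVL4 (0.428 ± 0.298 CPM in sgCtrl and 1.28 ± 0.0639 CPM in sgITPR3). ELAVL4, an RNA-binding protein of neurons, was the only neuron marker tested, with 9, 14 and 2 counts in sgCtrl and 30, 30 and 26 in sgITPR3. It was higher in sgITPR3 but passed the low-count filter through those libraries, so no p-value is given. The part of neuron-derived RNA in the values below was not tested. Schwann cell and glial markers, with SOX10 at 0, summed to 0.160 to 0.894 and 0.154 to 0.647 CPM. Hepatocyte markers summed to 65.9 to 246 CPM in sgCtrl and 147 to 293 CPM in sgITPR3, with any count at all in 8 of 8. The liver transcript ALB was at 33.7, 169 and 21.5 CPM in sgCtrl and 231, 152 and 111 CPM in sgITPR3, with overlapping groups. Of the 6 hepatocyte markers tested, ALB, APOA1, TTR, FGB and TF had log2 fold changes between 1.01 and 1.15. Their groups overlapped, each was highest among the controls in replicate 2, and only APOA1 passed (edgeR adjusted p = 0.0414). SERPINA1 went the other way, from 43.3 ± 3.85 to 13.9 ± 2.17 CPM without overlap (edgeR adjusted p = 1.51e-07). Erythroid markers summed to 0.586 to 1.34 CPM in sgCtrl and 4.83 to 6.38 CPM in sgITPR3, a difference carried by HBA2 (0.758 ± 0.260 CPM in sgCtrl and 4.40 ± 0.832 CPM in sgITPR3) and its near-identical copy HBA1 (0.175 ± 0.136 CPM in sgCtrl and 1.22 ± 0.484 CPM in sgITPR3). HBB had 1, 2 and 0 counts in sgCtrl and 0, 0 and 1 in sgITPR3, and ALAS2 had 0 to 2 counts per library. Macrophage markers summed to 1.59 to 2.15 and 1.44 to 1.82 CPM, endothelial markers to 0.298 to 0.644 and 0.202 to 0.669 CPM, and stellate cell and fibroblast markers to 17.9 to 19 and 20.2 to 22.1 CPM. All marker rows are human genes counted on GRCh38, and how mouse reads were handled is not given. Marker levels for cell types of the mouse liver therefore do not measure how many such cells were present. Where the ALB level as a covariate ended a call, the value is given beside it, and the part of erythroid RNA was not tested. In bulk RNA, more cells that express a gene and more RNA per cell cannot be told apart.

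Among members that passed the low-count filter, the neural ones were mostly higher in sgITPR3, and the broad ones mostly near the level of the controls or below it. Of the 28 neural members, 9 were too low to test. Of the 54 members, 43 passed the low-count filter. By edgeR's quasi-likelihood test over all genes (adjusted p under 0.05, here called), 16 of the 43 were called higher, which is 37.2%, beside 11.6% of all 15804 genes tested. Another 8 were called lower, 18.6% beside 11.9% of all genes, and 19 were not called. Of 19 neural members tested, 14 were higher, 3 lower and 2 not called, with a median log2 fold change of 1.69. The 3 lower ones, PTPRN2, CPLX2 and RAB3B, had the highest sgCtrl levels of the neural members (means 194, 114 and 43.1 CPM). Of 15 broad members, 1 was higher, 5 lower and 9 not called (median -0.07), and of 9 mixed members 1 was higher and 8 were not called (median 0.03). The median over all genes tested was 0.00. Since the family was put together with these values known, nothing is read from the shares. A gene also passes the filter through a high level in sgITPR3 alone: CPLX1 and BSN had under 10 counts in every sgCtrl library. Counts in sgCtrl were 13, 7 and 7 for SYT5, 8, 11 and 6 for SYN1, and 12, 19 and 6 for PTPRN. These genes, also called higher, would not have passed through their controls alone.

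**Figure D1:**
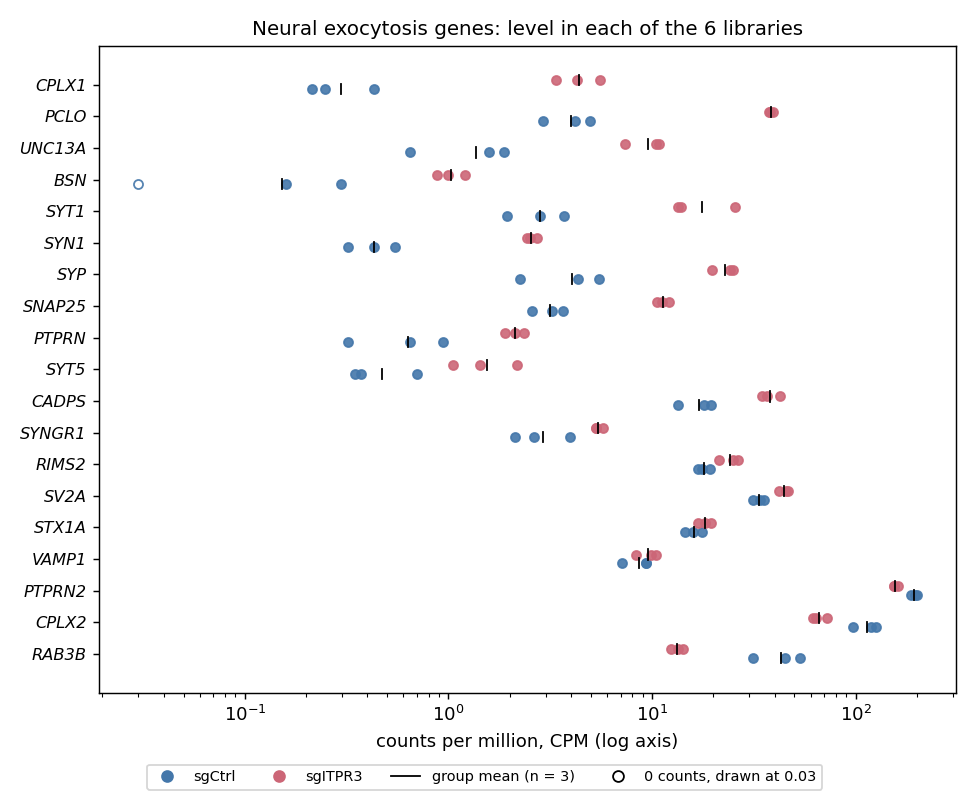
Level of the 19 neural members that passed the low-count filter, in CPM on a log axis, with 1 point per library, a black bar at each group mean and an open circle for a count of 0. In the 14 uppermost genes every sgITPR3 library lies above every sgCtrl library, in STX1A and VAMP1 the groups overlap, and in PTPRN2, CPLX2 and RAB3B the sgITPR3 libraries lie below.

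The remaining 11 members were too low to test, with at most 11 counts in any library. SYT4 and SYT16 had no count in any library, which at a floor of 3 counts allows up to 0.121 to 0.161 CPM. SYT2, SYT3, SYN2, SNAP91 and RIMS1 had at most 2 counts per library, and RAB27B had at most 4. SV2B, a vesicle glycoprotein, had 0 counts in each sgCtrl library and 1, 7 and 0 in sgITPR3. RAB3A, the main RAB3 of brain synapses, had 10, 5 and 6 counts in sgCtrl and 4, 9 and 11 in sgITPR3. RPH3A, the RAB3 effector rabphilin, had 1, 3 and 6 against 7, 6 and 7. Of these 11, SYT16 is mixed, RAB27B is broad and the other 9 are neural, so that 9 of 28 neural members stayed at a trace in both groups.

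Promoter windows were examined for letters that the choice of members had not used. RefSeq windows on GRCh38.p14, from 250 bases before to 50 after a gene start, were found for 44 of the 54 members. No window was found for CADPS2, CPLX1, PTPRN2, RIMS2, SNAP25, SYT12, SYT13, SYT17, SYT7 and UNC13D. RE1, the element bound by the neural gene repressor REST, was searched on both strands as its core (the RE1 core, which joins left and right letters across 2 free bases) and, separately, as its left part TTCAGCACC and as its right part, both of which share letters with the core. The cyclic AMP response element was searched as TGACGTCA. The windows of SYN1 and UNC13A are shown because they hold matches and their genes were higher in sgITPR3. Those of PCLO, which had the widest fold difference of the members with a window, and of RAB3B, the neural member with the lowest log2 fold change, are shown for comparison. Each is written 5' to 3' on the strand of the gene, with matches in capitals.
SYN1 (chrX:47619808-47620107, minus strand): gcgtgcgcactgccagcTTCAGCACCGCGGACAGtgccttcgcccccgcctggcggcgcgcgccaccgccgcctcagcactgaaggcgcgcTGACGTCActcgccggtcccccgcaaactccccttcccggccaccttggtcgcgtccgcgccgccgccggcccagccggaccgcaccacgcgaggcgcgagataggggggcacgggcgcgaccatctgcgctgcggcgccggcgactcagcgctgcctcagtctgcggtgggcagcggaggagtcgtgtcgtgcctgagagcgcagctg
UNC13A (chr19:17688305-17688604, minus strand): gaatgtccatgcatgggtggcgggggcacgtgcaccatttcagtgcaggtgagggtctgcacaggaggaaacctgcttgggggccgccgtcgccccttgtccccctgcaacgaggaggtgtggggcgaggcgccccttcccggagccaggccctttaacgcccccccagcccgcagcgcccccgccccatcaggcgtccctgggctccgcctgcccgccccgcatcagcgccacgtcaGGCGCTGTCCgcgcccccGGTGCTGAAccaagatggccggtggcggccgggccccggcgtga
PCLO (chr7:83162835-83163134, minus strand): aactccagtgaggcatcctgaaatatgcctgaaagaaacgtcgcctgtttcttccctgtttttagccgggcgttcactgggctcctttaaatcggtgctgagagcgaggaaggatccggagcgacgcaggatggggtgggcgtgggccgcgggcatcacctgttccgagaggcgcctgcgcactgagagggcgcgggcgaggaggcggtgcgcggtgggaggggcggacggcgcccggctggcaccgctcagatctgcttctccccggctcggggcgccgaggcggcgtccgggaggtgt
RAB3B (chr1:51990651-51990950, minus strand): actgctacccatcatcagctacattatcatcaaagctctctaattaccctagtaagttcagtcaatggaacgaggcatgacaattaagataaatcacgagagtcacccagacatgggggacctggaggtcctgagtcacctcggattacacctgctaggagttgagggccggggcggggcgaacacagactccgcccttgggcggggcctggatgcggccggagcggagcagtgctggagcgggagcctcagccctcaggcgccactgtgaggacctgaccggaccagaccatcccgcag
In SYN1 the RE1 core, read as CAGCACCGCGGACAG, lies at bases 20 to 34 of the window, overlapping the left part at bases 18 to 26, and the cyclic AMP element at bases 92 to 99. In UNC13A both RE1 parts lie on the opposite strand, the right part at bases 239 to 248 (the first run of capitals) and the left part at bases 257 to 265, with 8 bases between them where the core has 2. The core was found in 18 of 35116 windows of all genes (0.0513%) and in 2 of 24 neural members with a window (SYN1 and RPH3A), in 0 of 15 broad and in 0 of 5 mixed members. RPH3A was too low to test, and its windows are not shown. The 44 members had 75 windows, so a count of members and a share of windows are unlike measures. The left part was found in 0.376% of all windows, the right part in 0.259% and the cyclic AMP element in 1.85%. The windows of PCLO and RAB3B hold none of these letters. A match describes the letters of the window only.

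Of 7 active zone and priming proteins tested, 4 were higher, 1 was lower and 2 were not called. PCLO (ENSG00000186472, chromosome 7, 82754013 to 83162930 in GRCh38) encodes piccolo, a very large scaffold of the presynaptic active zone, and was at 2.90, 4.96 and 4.16 CPM in sgCtrl and 38.0, 39.0 and 37.5 CPM in sgITPR3 (log2 fold change 3.25, SE 0.142). The 3 sgITPR3 libraries lay within a narrow band, all far above the highest control. BSN, which encodes piccolo's partner bassoon, was scarce, with 0, 6 and 3 counts in sgCtrl and 23, 30 and 17 counts in sgITPR3 (log2 fold change 2.68, SE 0.618). With the ALB level in the model the call was lost (2.08).

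UNC13A (chromosome 19, 17601328 to 17688365), whose promoter window holds both RE1 parts, encodes the neuronal priming factor Munc13-1 and was at 0.644, 1.59 and 1.87 CPM in sgCtrl and 7.37, 10.5 and 10.9 CPM in sgITPR3 (log2 fold change 2.80, SE 0.278). Its control libraries spread widely among themselves, and the highest of them stayed below the lowest sgITPR3 library. UNC13B, a more widely used paralog, was at 18.1, 17.1 and 17.5 CPM in sgCtrl and 18.0, 13.9 and 16.7 CPM in sgITPR3 and the groups overlapped (log2 fold change -0.12, SE 0.113). UNC13D, which primes lytic granules of lymphocytes and granules of platelets, was at 24.0, 18.4 and 24.4 CPM in sgCtrl and 15.0, 13.7 and 13.5 CPM in sgITPR3 (log2 fold change -0.66, SE 0.119), below the controls in every sgITPR3 library. Within a library, the log2 ratio of UNC13A to UNC13D was thus 3.58 higher in sgITPR3 than in sgCtrl. RIMS2, encoding a RIM scaffold that ties RAB3 to calcium channels, was at 19.3, 17.6 and 16.8 CPM in sgCtrl and 21.3, 26.3 and 24.9 CPM in sgITPR3 (log2 fold change 0.43, SE 0.106), and this call ended without sgITPR3 replicate 2 (log2 fold change 0.36). ERC1, the broadly expressed ELKS scaffold, was at 100.2 ± 7.20 CPM in sgCtrl and 107 ± 2.81 CPM in sgITPR3, with overlapping groups.

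Among calcium sensors, SYT1, the fast calcium sensor of synaptic and dense-core vesicles (chromosome 12, 78863993 to 79452008), was at 1.93, 3.67 and 2.83 CPM in sgCtrl and 25.6, 13.4 and 13.8 CPM in sgITPR3 (log2 fold change 2.64, SE 0.265). The first sgITPR3 library stood well above the other two, and all 3 exceeded every control. SYT5, which is found on dense-core vesicles, was at 0.698, 0.348 and 0.373 CPM in sgCtrl and 1.42, 1.05 and 2.16 CPM in sgITPR3 (log2 fold change 1.69, SE 0.430). These levels rest on 7 to 13 counts in sgCtrl and 26 to 42 in sgITPR3, and the call ended without sgITPR3 replicate 3 (log2 fold change 1.38). SYT7, a high-affinity sensor of slow release and of lysosome exocytosis, was at 12.0, 12.0 and 9.44 CPM in sgCtrl and 21.2, 18.3 and 17.8 CPM in sgITPR3 (log2 fold change 0.78, SE 0.124). Its sgITPR3 libraries were closely spaced and did not overlap with the controls.

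The other synaptotagmins tested were not called. SYT11, which does not bind calcium, was at 0.308 ± 0.171 CPM in sgCtrl and 0.716 ± 0.0483 CPM in sgITPR3 (log2 fold change 1.18, SE 0.499), without overlap between the groups, and was called without sgCtrl replicate 2 (log2 fold change 1.71). SYT12 and SYT13 were below 1 CPM, with log2 fold changes of 0.59 and 0.01. SYT17 was at 3.66 ± 0.879 CPM in sgCtrl and 3.35 ± 0.914 CPM in sgITPR3 (log2 fold change -0.13).

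Proteins of the vesicle membrane split by paralog. SYP (chromosome X, 49187804 to 49200259), encoding synaptophysin, was at 2.26, 5.51 and 4.32 CPM in sgCtrl and 19.6, 24.9 and 24.2 CPM in sgITPR3 (log2 fold change 2.50, SE 0.211). Its relative in non-neural cells, SYPL1, was at 123, 117 and 108 CPM in sgCtrl and 86.5, 84.2 and 80.7 CPM in sgITPR3 (log2 fold change -0.47, SE 0.0711). The groups did not overlap in either gene and lay in opposite orders, and the log2 ratio of SYP to SYPL1 within a library was 3.06 higher in sgITPR3. The synaptogyrins differed in the same manner: SYNGR1, the neuronal form, was at 2.63, 3.97 and 2.13 CPM in sgCtrl and 5.74, 5.29 and 5.30 CPM in sgITPR3 (log2 fold change 0.90, SE 0.226), and SYNGR2, the form of most other tissues, at 116, 81.4 and 102 CPM in sgCtrl and 78.4, 76.4 and 74.6 CPM in sgITPR3 (log2 fold change -0.38, SE 0.101). Both calls were lost with the ALB level in the model (0.50 and -0.17), and that of SYNGR2 also ended without sgCtrl replicate 1 (-0.27) and without sgITPR3 replicate 3 (-0.37).

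SYN1, which encodes synapsin I, a protein that tethers vesicles to the cytoskeleton and to each other, was low in controls, at 0.430, 0.546 and 0.320 CPM in sgCtrl and 2.50, 2.71 and 2.42 CPM in sgITPR3 (log2 fold change 2.54, SE 0.335). The groups were clearly apart. The last 1000 bases of SYN1 overlap ARAF on the opposite strand. TIMP1, with 29453 counts over the 6 libraries, also overlaps SYN1 on the opposite strand, outside these bases. The strand setting used in counting is not known here, so reads of these genes may be mixed. SV2A, a glycoprotein of all synaptic vesicles, was already expressed in controls and was at 31.3, 35.3 and 33.8 CPM in sgCtrl and 46.3, 45.7 and 41.7 CPM in sgITPR3 (log2 fold change 0.41, SE 0.0821), a small difference without overlap.

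Of the 11 SNAREs, 1 was called higher, 1 lower and 9 were not called. SNAP25 (chromosome 20, 10218830 to 10307418), the target-membrane SNARE of neurons and endocrine cells, was at 3.65, 3.23 and 2.56 CPM in sgCtrl and 10.6, 12.2 and 11.2 CPM in sgITPR3 (log2 fold change 1.85, SE 0.164). No library of one group reached the range of the other. SNAP23, which does the same work in most other cells, was at 27.0, 25.4 and 27.7 CPM in sgCtrl and 26.1, 28.2 and 27.0 CPM in sgITPR3 (log2 fold change 0.02, SE 0.0855), and SNAP29, a SNARE of autophagosome fusion, at 48.2 ± 4.37 CPM in sgCtrl and 50.8 ± 2.55 CPM in sgITPR3. The SNAP23 groups overlapped fully, and the log2 ratio of SNAP25 to SNAP23 was 1.84 higher in sgITPR3. The last 1000 bases of SNAP23 overlap LRRC57 on the opposite strand.

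STX1A, the syntaxin of synapses and of insulin granules, was not called, at 17.6, 14.5 and 15.9 CPM in sgCtrl and 18.1, 19.6 and 16.7 CPM in sgITPR3 (log2 fold change 0.18, SE 0.110). Its last 1000 bases overlap the abundant gene BUD23 on the opposite strand. STX4, the syntaxin of the basolateral and general plasma membrane, was at 55.8, 57.0 and 58.1 CPM in sgCtrl and 45.1, 39.0 and 46.0 CPM in sgITPR3 (log2 fold change -0.39, SE 0.0801), lower in every sgITPR3 library. STX2 and STX3, of which the latter serves the apical membrane of epithelia, had log2 fold changes of 0.07 and 0.03. Among the vesicle SNAREs, VAMP1 of synapses was at 8.61 ± 1.27 CPM in sgCtrl and 9.56 ± 1.07 CPM in sgITPR3, and its last 1000 bases overlap TAPBPL on the opposite strand. VAMP2, also of synapses, was at 28.4 ± 4.75 CPM in sgCtrl and 26.1 ± 2.07 CPM in sgITPR3. VAMP3 of recycling endosomes was at 53.6 ± 5.98 CPM in sgCtrl and 47.8 ± 1.67 CPM in sgITPR3, and VAMP8 of late endosomes and exocrine granules at 101 ± 3.81 CPM in sgCtrl and 96.1 ± 4.52 CPM in sgITPR3. All 4 had overlapping groups and log2 fold changes between -0.16 and 0.15.

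**Figure D2:**
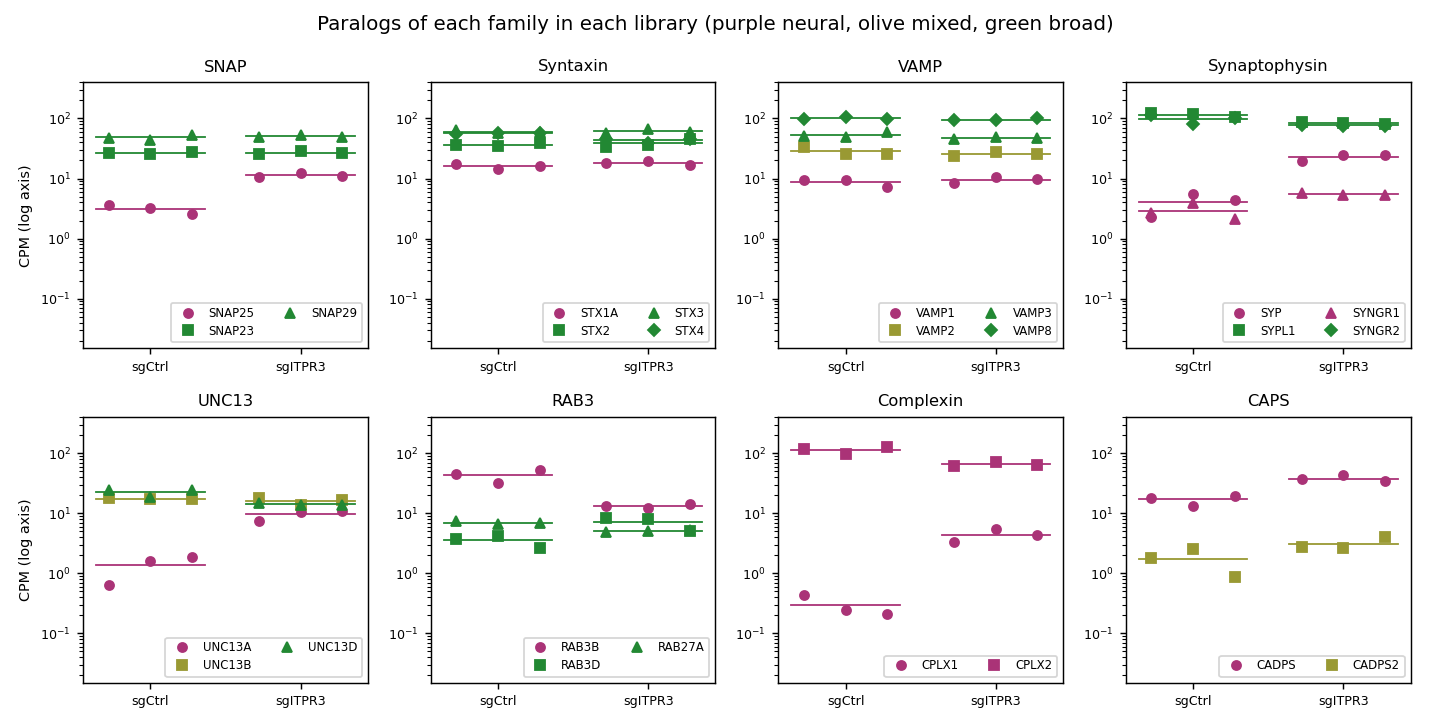
Level in CPM (log axis) of the paralogs of 8 families in the 3 sgCtrl and 3 sgITPR3 libraries, left to right by replicate number, with a line at each group mean (purple neural, olive mixed, green broad). The neural SNAP25, SYP, SYNGR1, UNC13A, CPLX1 and CADPS and the broad RAB3D were called higher in sgITPR3. The neural CPLX2 and RAB3B and the broad SYPL1, SYNGR2, STX4 and UNC13D were called lower. The neural STX1A and VAMP1 kept overlapping groups, as did SNAP23, SNAP29, STX2, STX3, VAMP2, VAMP3, VAMP8 and UNC13B. CADPS2 and RAB27A were not called although their groups did not overlap.

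The complexins, which bind the assembled SNARE bundle, went opposite ways. CPLX1 (chromosome 4, 784957 to 826198) had 8, 5 and 4 counts in the sgCtrl libraries and 78, 137 and 83 counts in the sgITPR3 libraries, or 0.297 ± 0.116 CPM in sgCtrl and 4.39 ± 1.09 CPM in sgITPR3 (log2 fold change 3.87, SE 0.351). Its paralog CPLX2 (chromosome 5, 175796310 to 175884020) was at 118, 97.0 and 126 CPM in sgCtrl and 61.9, 72.3 and 63.6 CPM in sgITPR3 (log2 fold change -0.79, SE 0.0953). Neither gene had overlapping groups, and each kept its direction and call in all 6 fits that left out 1 library and with ALB as a covariate (4.17 and -0.58). STXBP2, the Munc18 protein of lymphocytes and epithelia, was at 11.9, 7.60 and 8.37 CPM in sgCtrl and 5.35, 5.05 and 6.90 CPM in sgITPR3 (log2 fold change -0.69, SE 0.188). This call was less firm: it ended without sgCtrl replicate 1 (-0.48), without sgITPR3 replicate 1 (-0.64) or 2 (-0.60), and with ALB as a covariate (-0.46). STXBP5, the SNARE inhibitor tomosyn, and NSF, the ATPase that pulls spent SNAREs apart, were not called, with log2 fold changes of 0.03 and 0.22. NSF has a near-identical partial copy nearby, so its count is uncertain.

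RAB proteins, which bring vesicles to their site of release, also differed between paralogs. RAB3B (chromosome 1, 51907956 to 51990764), a RAB3 of neurons and endocrine cells that some epithelia also express, was at 44.8, 31.4 and 53.1 CPM in sgCtrl and 13.4, 12.4 and 14.1 CPM in sgITPR3 (log2 fold change -1.69, SE 0.152). All 3 sgITPR3 libraries were close together below the lowest control. RAB3D, the RAB3 of exocrine granules, was at 3.76, 4.22 and 2.67 CPM in sgCtrl and 8.28, 7.92 and 4.99 CPM in sgITPR3 (log2 fold change 1.0, SE 0.226). The third sgITPR3 library was nearest to the controls, and RAB3D was not called with the ALB level in the model (0.63). TMEM205, with 5583 counts over the 6 libraries, overlaps RAB3D on the same strand, outside its last 1000 bases. RAB27A, which serves melanosomes and lytic granules, was at 7.47, 6.55 and 6.77 CPM in sgCtrl and 4.96, 5.13 and 5.30 CPM in sgITPR3. It was not called although the groups did not overlap (log2 fold change -0.43, SE 0.154).

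Of dense-core vesicle proteins, CADPS (chromosome 3, 62398346 to 62875389), the priming factor CAPS1 of hormone and peptide release, was at 18.0, 13.5 and 19.6 CPM in sgCtrl and 36.6, 42.6 and 34.6 CPM in sgITPR3 (log2 fold change 1.16, SE 0.126). CADPS2 was at 1.77, 2.58 and 0.853 CPM in sgCtrl and 2.76, 2.67 and 3.96 CPM in sgITPR3 and was not called although the groups did not overlap (log2 fold change 0.83, SE 0.333), and it was called without sgCtrl replicate 2 (1.24). PTPRN, the granule membrane protein IA-2, was at 0.644, 0.943 and 0.320 CPM in sgCtrl and 1.90, 2.34 and 2.11 CPM in sgITPR3 (log2 fold change 1.72, SE 0.369), from 6 to 19 counts in sgCtrl and 41 to 58 in sgITPR3, and it was not called with the ALB level in the model (1.28). Its paralog PTPRN2, or phogrin, was at 199, 196 and 186 CPM in sgCtrl and 154, 154 and 162 CPM in sgITPR3 (log2 fold change -0.31, SE 0.0643). The 2 paralogs thus lay in opposite orders, each without overlap between the groups. Ratios within a library were also taken for pairs other than those of UNC13A, SYP and SNAP25 given above. The log2 ratio in sgITPR3 minus that in sgCtrl was 1.32 for SYNGR1 to SYNGR2 and 0.58 for STX1A to STX4. It was 0.32 for VAMP1 to VAMP3, 0.20 for CADPS to CADPS2 and -2.65 for RAB3B to RAB3D.

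**Figure D3:**
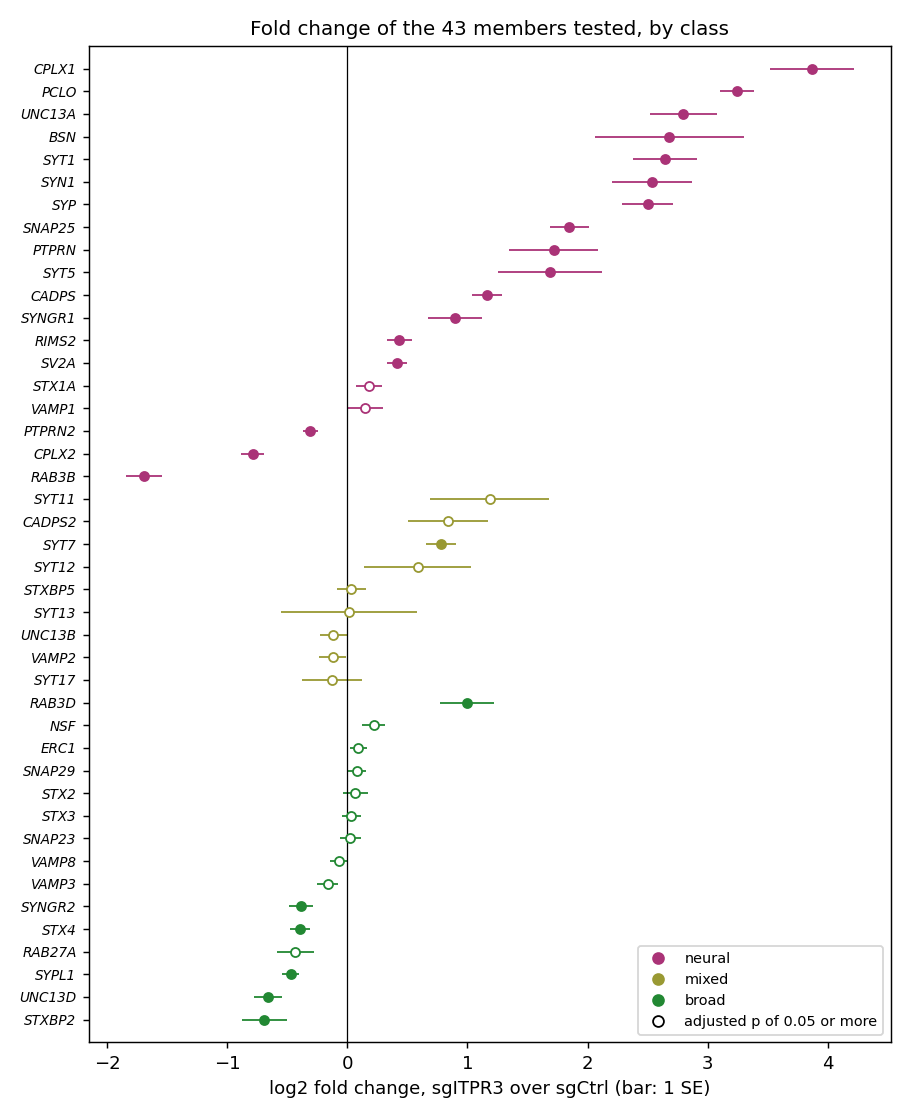
Log2 fold change of sgITPR3 over sgCtrl for the 43 members tested, grouped by class, with bars of 1 SE and open symbols where the adjusted p was 0.05 or more. Neural members run from -1.69 (RAB3B) to 3.87 (CPLX1), while broad members run from -0.69 (STXBP2) to 1.0 (RAB3D).

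Every sgITPR3 library lay above every sgCtrl library in each of the 14 neural members called higher, an order seen in 19.6% of all genes tested. A call in either direction favours genes with such an order, so the order adds no support to the calls. Of the 16 members called higher, 14 kept the call whichever library was left out and 12 kept it with ALB as a covariate. Each of the 8 called lower had every sgITPR3 library below every control (19.7% of all genes tested), and 6 of them kept the call in both respects. Among the controls, replicate 2, the one with most ALB, had the highest level of 10 of the 16 members called higher, including PCLO, SYP and SYT1. Replicate 1 had the highest level of 4 (SYT5, SNAP25, CPLX1 and RIMS2) and replicate 3 that of 2 (UNC13A and CADPS), CADPS being lowest in replicate 2. In the fit with the ALB level, log2 fold changes were 3.06 for PCLO, 2.30 for SYP, 2.11 for SYT1, 1.80 for SNAP25, 2.93 for UNC13A and 1.43 for CADPS, and all 6 calls remained.

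The rest of the secretory and synaptic machinery was read from 8 lists of 161 other genes, of which 124 were tested. Of these 17 rose and 17 fell, 13.7% each, beside 11.6% and 11.9% of all genes tested, and 90 did not pass. The median log2 fold change was -0.01. Without sgITPR3 replicate 2 the number that rose was 10, and with ALB as a covariate it was 8.

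Outside the family, 4 of 20 tested genes of the active zone and RAB3 cycle rose and 1 fell, while 15 did not pass. RAB3C, a neuronal RAB3, was nearly silent in controls, with 0, 1 and 3 counts, and had 50, 41 and 24 counts in sgITPR3. It is counted among the 4 but passed the filter through the sgITPR3 libraries alone, so no p-value is given. RIMS4, a short RIM protein, had 7, 9 and 14 counts in sgCtrl and 52, 44 and 55 in sgITPR3. Its levels were 0.523 ± 0.197 and 2.28 ± 0.528 CPM (log2 fold change 2.11, SE 0.366). With most controls under 10 counts, RIMS4 too passed the filter through the sgITPR3 libraries, so no p-value is given. APBA1, the adaptor Mint1, had 13, 18 and 7 counts in sgCtrl and 46, 50 and 34 in sgITPR3. The APBA1 levels were 0.655 ± 0.263 and 1.92 ± 0.147 CPM (log2 fold change 1.54, SE 0.356). APBA1 would not have passed the filter through its controls alone, so no p-value is given. With the ALB level in the model APBA1 was not called (1.11). CASK rose by 0.32 on the log2 scale, with an edgeR adjusted p of 0.0174 that was above 0.05 without sgCtrl replicate 1 or 3 and without sgITPR3 replicate 1 or 2 (0.0548 to 0.0747) and with ALB as a covariate (0.220). MLPH, the RAB27 effector melanophilin, fell from 4.39 ± 0.487 to 0.880 ± 0.442 CPM (edgeR log2 fold change -2.34 with an SE of 0.308, adjusted p = 7.93e-05).

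Of 12 tested transmitter transporters and further vesicle membrane proteins, 2 rose, 1 fell and 9 did not pass. SCAMP5, a neural secretory carrier protein, rose from 3.67 ± 0.980 to 8.71 ± 0.753 CPM (edgeR log2 fold change 1.25 with an SE of 0.191, adjusted p = 2.96e-04). SLC18A1, the monoamine transporter of endocrine granules, rose from 0.759 ± 0.210 to 1.59 ± 0.0371 CPM (edgeR adjusted p = 0.0365), but the call held only without sgCtrl replicate 2 among the 6 fits that left out 1 library, the other edgeR adjusted p-values reaching 0.124, and it ended with ALB as a covariate (0.322). SYNGR3, a further neuronal synaptogyrin, went against SYNGR1, with 47, 42 and 44 counts in sgCtrl and 15, 21 and 7 in sgITPR3. In sgCtrl SYNGR3 averaged 2.32 ± 0.221 CPM, beside 0.619 ± 0.245 CPM in sgITPR3. The edgeR estimate was -1.87 on the log2 scale (SE 0.346). SYNGR3 is counted as the 1 that fell but would not have passed the filter through its sgITPR3 libraries alone, so no p-value is given.

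Of 10 further synaptotagmin-like and C2 domain genes tested, 1 rose, 5 fell and 4 did not pass. SYTL1, a RAB27 effector, fell from 17.4 ± 0.0991 to 9.73 ± 0.719 CPM (edgeR log2 fold change -0.84 with an SE of 0.110, adjusted p = 7.36e-05), and SYTL3 from 22.0 ± 1.77 to 12.5 ± 4.28 CPM (edgeR adjusted p = 0.00337). The extended synaptotagmins ESYT1 and ESYT2, which tether the endoplasmic reticulum to the plasma membrane, fell, ESYT1 from 178 ± 5.53 to 126 ± 3.05 CPM and ESYT2 from 136 ± 3.79 to 98.0 ± 1.15 CPM (edgeR adjusted p = 5.80e-05 and 1.07e-04). DOC2A, a calcium sensor of spontaneous release, rose by 0.47 on the log2 scale (edgeR adjusted p = 0.0253), a call lost without any 1 library other than sgITPR3 replicate 3 (edgeR adjusted p at most 0.0964) and with ALB as a covariate (0.122).

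Voltage-gated calcium channels trigger release at synapses. Of their 10 genes tested, 2 rose, 2 fell and 6 did not pass. CACNA1C, the pore of the L-type channel, rose from 5.14 ± 0.985 to 8.47 ± 1.11 CPM (edgeR adjusted p = 0.00803; 0.212 with ALB as a covariate). CACNA2D2 rose from 0.675 ± 0.107 to 1.37 ± 0.137 CPM at an edgeR adjusted p of 0.0480, which all 6 fits without 1 library put above 0.05 (0.0529 to 0.153). The auxiliary subunit gene CACNB4 fell from 5.44 ± 0.652 to 1.06 ± 0.155 CPM (edgeR log2 fold change -2.35 with an SE of 0.235, adjusted p = 6.19e-06), and CACNA2D4 from 54.0 ± 4.32 to 29.4 ± 5.23 CPM (edgeR adjusted p = 5.74e-05).

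Machinery shared by all cells was covered by 3 lists. Of 28 other SNAREs and SNARE partners, 2 rose, 3 fell and 23 did not pass. NAPG, a SNAP adaptor of NSF, fell by 0.40 on the log2 scale (edgeR adjusted p = 8.94e-04), and the endosomal syntaxin STX8 rose by 0.43 (edgeR adjusted p = 0.00235). The exocyst, which tethers vesicles before fusion, had 2 that rose (EXOC1 and EXOC6B), 1 that fell (EXOC6, log2 fold change -0.36, edgeR adjusted p = 0.00654) and 6 that did not pass. The EXOC1 call ended without sgITPR3 replicate 2 or 3 (edgeR adjusted p = 0.0666 and 0.0505), that of EXOC6B without sgITPR3 replicate 2 (0.0668), and those of EXOC6B and EXOC6 with ALB as a covariate (0.0620 and 0.112). Of 22 genes of vesicle endocytosis, 3 rose, 4 fell and 15 did not pass. STON2, the adaptor that sorts synaptotagmin into endocytic vesicles, rose from 1.73 ± 0.833 to 5.18 ± 1.07 CPM (edgeR log2 fold change 1.6 with an SE of 0.310, adjusted p = 0.00192). The clathrin light chain gene CLTB and the adaptor subunit gene AP2S1 fell by 0.44 and 0.54 on the log2 scale (edgeR adjusted p = 0.00122 and 0.00102). Of 13 postsynaptic scaffold and synaptic adhesion genes, 12 did not pass, and NLGN2, encoding a neuroligin of inhibitory synapses, rose from 13.9 ± 0.867 to 19.4 ± 1.32 CPM (edgeR adjusted p = 0.00426; 0.0784 in the fit with ALB).

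**Figure D4:**
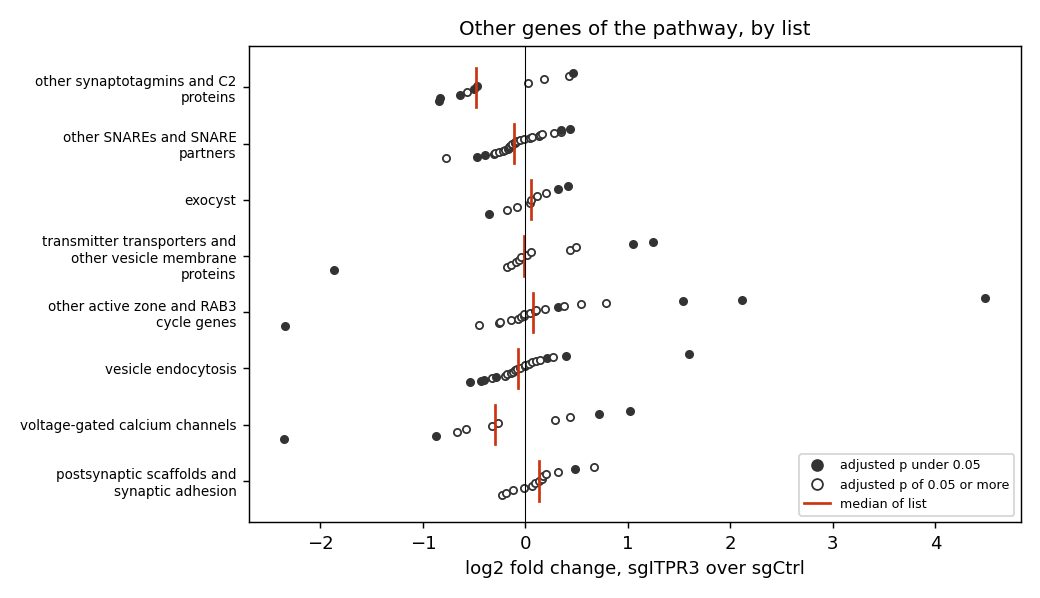
Log2 fold change of sgITPR3 over sgCtrl for the 124 tested genes of 8 other lists, with filled points for an adjusted p under 0.05 and a red bar at each list's median. List medians lie between -0.49 and 0.13, and single genes such as RIMS4 (2.11), MLPH (-2.34) and CACNB4 (-2.35) lie far from them.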

How the data were processed

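The authors deposited raw gene counts, with no normalization, for 58884 gene rows in 6 libraries of 3' tags (Lexogen kit, per the labels' protocols). STAR 2.6.0a, featureCounts 1.6.3, DESeq2 and the build GRCh38 are named in the submitters' processing notes. Not given in the sources used here are the gene annotation, whether counting used strand, and how mouse or multimapping reads were handled. Groups came from the labels, and gene positions are from GENCODE release 29 on GRCh38.

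Genes were filtered with filterByExpr (minimum count 10), which kept 15804 genes holding at least 99.8% of the counts of each library. Counts were scaled with TMM (factors 0.962 to 1.03) and tested with edgeR 4.0.16 (R 4.3.3) by the quasi-likelihood test over all 6 libraries, with Benjamini-Hochberg adjustment over all genes tested and a call at an adjusted p under 0.05. The SE is the log2 fold change divided by the square root of F. The biological coefficient of variation was 9.53%, and 3 counts equal 0.121 to 0.161 CPM, a limit of counting error only. The procedure was tested on simulated counts, in which false calls were more frequent than the nominal rate, a limit on every call and adjusted p given. Alternatives were another scaling, other filters, a 1.5-fold threshold, the ALB level as a covariate, a replicate block, limma-voom 3.58.1, DESeq2 1.42.0 and leaving out each library.

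The members, classes and lists were chosen with earlier results of these data known, so p-values of genes on those lists are no independent support. All members are named, and of each other list up to 4 called genes per direction with the smallest p could be named.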

Additional observations from a re-analysis of the deposited data

How the results depend on the processing

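The 16 members called higher numbered 15 to 18 when 1 library was left out, and the 8 called lower 6 to 8. With a test against a 1.5-fold difference these counts were 10 and 1. Among other pathway genes, the 17 that rose numbered 10 to 18 without 1 library (10 without sgITPR3 replicate 2), 4 against a 1.5-fold difference and 8 with ALB as a covariate. The 17 that fell numbered 15 to 18 without 1 library and 3 against a 1.5-fold difference. The cause was not tested for ALB. No called gene that is named changed sign under any alternative. The sign changed for 8 members that were not called (SYT13, SYT17, SNAP23, STX2, STX3, STXBP5, VAMP2 and ERC1), to log2 fold changes between -0.34 and 0.08. Same-numbered libraries of the 2 groups did not deviate together (correlations -0.0503, 0.013 and 0.0977), so the numbers were not taken as pairs. With a replicate block 16 members were higher, no member's call changed, and the calls of SLC18A1 and CACNA2D2 ended (log2 fold changes 1.07 and 1.02). Members below about 1 CPM rest on few counts, where a difference may not have been detectable at this depth.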
